A study of Mus musculus with 10 samples.

Results

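The interferon-stimulated genes described here are 39 genes that cells switch on after they sense virus or interferon, followed in primary mouse hepatocytes that had all received an adenovirus. They were taken from the array by symbol, using only probe sets that the annotation ties to exactly 1 gene symbol, and where a gene had several such probe sets the one with the highest mean over the 10 libraries was kept. On this basis 33 of the 39 genes were measured, of 16401 genes on the array, and 30 of them were among the 11480 genes that passed a filter on low intensity. Mx2, Oas2 and Oas3 fell below that filter (a mean of 7.13 on the log2 scale). Mx1 and Ifi44 had no probe set in the annotation used. Isg15 shared its probe set with Gm9706, Gbp2 with Gbp2b, and Igtp and Irgm2 with each other, so these 4 genes are given no values. Oas1a had a probe set of its own beside one shared with Oas1g, and only its own was read.

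RNA from primary hepatocytes of male C57BL6/J mice aged 10 weeks was hybridised to Affymetrix arrays after adenoviral delivery of a short hairpin RNA for 72 hours at 2 to 4 plaque-forming units per cell. The hairpins were shKAT2B, against the histone acetyltransferase gene Kat2b, shWDR5, against Wdr5, whose product is a subunit of histone methyltransferase complexes, and the non-specific shNS. Cells then received 100 nM glucagon, the fasting hormone, or phosphate-buffered saline (PBS) for 90 minutes. Every library was a pool of RNA from 3 dishes, and the labels describe 1 hairpin per target. The 6 groups were shKAT2B glucagon, shKAT2B PBS, shWDR5 glucagon, shWDR5 PBS, shNS glucagon and shNS PBS. The groups shKAT2B glucagon, shWDR5 glucagon, shNS glucagon and shNS PBS held 2 libraries each, lettered B and A, and shKAT2B PBS and shWDR5 PBS held 1 library each, lettered A. All 6 groups carried adenovirus, the shNS groups included, and no untransduced cells were among the samples, so no effect of transduction itself could be measured. The labels do not say that the letters are separate animals, and p-values therefore measure the spread between these libraries, which may be technical.

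Interferons are cytokines released by cells that detect viral nucleic acid. Type I interferon signals through the receptor chains IFNAR1 and IFNAR2 and the kinases JAK1 and TYK2 to a transcription factor complex with STAT2 and IRF9, which binds interferon-stimulated response elements in promoters, while interferon gamma acts through gamma-activated sites. The induced genes encode nucleic acid sensors, transcription factors that amplify the response, effectors that block steps of viral replication, the ubiquitin-like ISG15 system, GTPases that attack pathogen vacuoles, and the machinery of antigen presentation. Hepatocytes and the resident macrophages of the liver, the Kupffer cells, both carry this response.

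RefSeq promoter windows (250 bases before to 50 after a transcript start, build GRCm38.p6) were found for 25 of the 33 measured genes, as 32 windows. The core of the interferon-stimulated response element, searched as GAAANNGAA on both strands, occurred in 14 of the 32 windows (43.8 percent, 13 genes), against 2812 of all 32851 windows in the table (8.56 percent). The gamma-activated site, searched as TTCNNNGAA on both strands, occurred in 7 of the 32 windows (21.9 percent), against 8.30 percent of all windows, and 1 such match, in Bst2, overlapped a response element core. The search found no core in the windows of Oasl2, Xaf1 and Tap1, which are also among the larger changes described below. The stretches that follow show the cores, in capitals, in some of the 13 genes that have one: Trim30a (chr7:104465200-104465248, minus strand), Rsad2 (chr12:26456543-26456591, minus strand), Ifit3 (chr19:34583407-34583455, plus strand), Bst2 (chr8:71537568-71537616, minus strand), Stat2 (chr10:128270257-128270305, plus strand), Gbp3 (chr3:142559986-142560034, plus strand) and B2m (chr2:122147528-122147576, plus strand). Each is printed 5′ to 3′ on the strand of its gene, and a core lying on the opposite strand reads as its reverse complement.
Trim30a: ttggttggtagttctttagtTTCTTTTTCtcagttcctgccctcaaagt
Rsad2: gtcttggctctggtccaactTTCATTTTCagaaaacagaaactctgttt
Ifit3: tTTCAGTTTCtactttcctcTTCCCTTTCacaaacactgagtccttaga
Bst2: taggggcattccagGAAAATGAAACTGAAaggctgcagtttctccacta
Stat2: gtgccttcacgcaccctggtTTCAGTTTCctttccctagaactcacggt
Gbp3: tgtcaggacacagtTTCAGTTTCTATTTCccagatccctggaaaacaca
B2m: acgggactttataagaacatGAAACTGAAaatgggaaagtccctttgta
A match describes letters in a window and is not a binding site shown to be used.

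Kat2b stood between 6.60 and 6.93 on the log2 scale in shKAT2B libraries and between 9.40 and 9.59 elsewhere, and Wdr5 between 8.19 and 8.40 in shWDR5 libraries and between 9.98 and 10.07 elsewhere, so each hairpin arm showed its target lowered. Libraries of the same letter deviated together across all genes (correlations of 0.72 to 0.84 over the 6 pairs of groups). The leading component of the residuals of a model of hairpin and treatment held 78.0 percent of their variance and split the libraries into 2 sets. The A libraries of the 4 groups that hold both letters formed one set, and the 4 B libraries lay in the other together with the lone shKAT2B PBS A and shWDR5 PBS A libraries. What the letters and the 2 sets stand for is not stated in the labels, so counts of the interferon-stimulated genes are given with and without them in the fit.

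The interferon-stimulated genes were lower in B than in A libraries in nearly every role. Of the 30 genes tested, 28 were lower in B (limma, 8 libraries, 4 B against 4 A, group in the model, Benjamini-Hochberg adjusted p below 0.05), against 35.5 percent of all 11480 genes called lower. The gene of the class I light chain, B2m, was higher in B, against 15.7 percent of all genes called higher, and the exonuclease gene Isg20 was not called. The median log2 change of B over A was -0.43 over the 30 genes and -0.07 over all genes. All 4 B libraries lay below all 4 A libraries for 20 of the 30 genes, against 15.9 percent of all genes, and B lay below A within each of the 4 groups for 27 of the 30, against 40.5 percent of all genes. B lay below A for most of the 30 genes in each group, with a median difference of -0.37 in shKAT2B glucagon (27 negative), -0.52 in shWDR5 glucagon (29 negative), -0.39 in shNS glucagon (28 negative) and -0.45 in shNS PBS (29 negative).

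**Figure D1:**
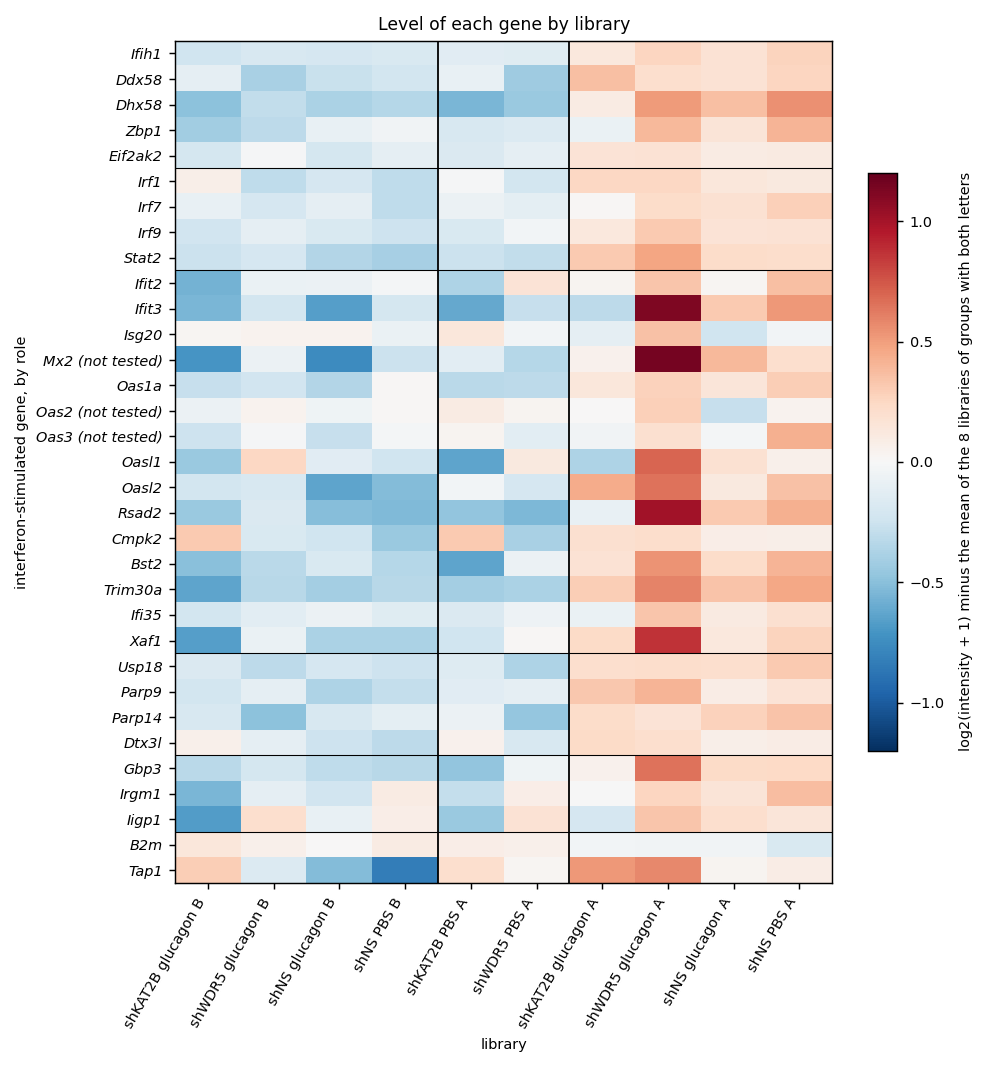
Colour gives log2(intensity + 1) of each of the 33 measured genes (rows, by role) in each of the 10 libraries (columns), minus that gene's mean over the 8 libraries of the groups with both letters. The 4 B libraries at the left and the 2 lone PBS libraries in the middle are mostly blue (lower), and the 4 A libraries at the right mostly red (higher).

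Values in the following sentences are log2(intensity + 1), given for shKAT2B glucagon, shWDR5 glucagon, shNS glucagon and shNS PBS in that order, first for B and then for A libraries. Changes are B over A with the model's standard error (SE), 4 libraries against 4, and adjusted p from limma. Intensities of different probe sets are not compared with each other.

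Among sensors of viral RNA and DNA, 5 of 5 tested genes were lower in B, with a median of -0.43. Dhx58, which encodes LGP2, a regulator of the RNA sensors, stood at 8.64, 8.84, 8.75 and 8.79 in B, against 9.23, 9.64, 9.49 and 9.68 in A libraries. This was a change of -0.75 ± 0.06 (adjusted p = 5.95e-06), and no B library reached an A library. Ddx58, the gene of the RNA sensor RIG-I, stood at 10.79, 10.51, 10.63 and 10.68 in B, against 11.26, 11.10, 11.07 and 11.16 in A libraries. It fell by 0.49 ± 0.04 (adjusted p = 1.01e-05), again without overlap. Zbp1, which encodes a sensor of Z-form nucleic acid, had 8.41, 8.51, 8.73 and 8.78 in B, against 8.74, 9.21, 8.98 and 9.23 in A libraries. Its change was -0.43 ± 0.07 (adjusted p = 0.000655), and the B and A ranges overlapped by a single pair of libraries, shNS PBS B and shKAT2B glucagon A. Ifih1, encoding MDA5, the sensor of long double-stranded RNA, had 10.04, 10.08, 10.07 and 10.09 in B, against 10.40, 10.53, 10.45 and 10.54 in A libraries. The change of -0.41 ± 0.05 (adjusted p = 4.87e-05) came with the tightest B libraries of the sensors, which spanned 10.04 to 10.09. Eif2ak2, encoding the kinase PKR that halts translation on sensing double-stranded RNA, had 10.05, 10.25, 10.05 and 10.15 in B, against 10.42, 10.43, 10.36 and 10.37 in A libraries. It changed by -0.27 ± 0.05 (adjusted p = 0.00112), with the 4 B libraries below the 4 A libraries.

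All 4 transcription factor genes were lower in B, with a median of -0.38. Stat2, the transactivating subunit of the type I interferon complex, stood at 10.31, 10.37, 10.22 and 10.17 in B, against 10.88, 11.04, 10.79 and 10.78 in A libraries. The 4 B libraries were well apart from the 4 A libraries, and the change was -0.60 ± 0.05 (adjusted p = 3.67e-06), or 1.52-fold lower. Irf9, the DNA-binding subunit of the same complex, had 10.13, 10.25, 10.18 and 10.11 in B, against 10.49, 10.67, 10.52 and 10.53 in A libraries. The change was -0.38 ± 0.05 (adjusted p = 6.39e-05), without overlap. Irf1, a factor induced by interferon gamma, had 8.69, 8.32, 8.42 and 8.32 in B, against 8.87, 8.87, 8.76 and 8.74 in A libraries, a change of -0.37 ± 0.07 (adjusted p = 0.00100). Irf7, which amplifies production of type I interferon, had 10.49, 10.37, 10.47 and 10.27 in B, against 10.59, 10.80, 10.76 and 10.86 in A libraries, and changed by -0.35 ± 0.07 (adjusted p = 0.00146). For both Irf1 and Irf7 the letters did not overlap, and their difference was smallest in shKAT2B glucagon, at -0.18 for Irf1 and -0.10 for Irf7.

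Among antiviral effectors 11 of 12 tested genes were lower in B, with a median of -0.55. Rsad2 encodes viperin, an enzyme that makes a chain-terminating nucleotide, and stood at 9.12, 9.39, 9.05 and 9.03 in B, against 9.47, 10.57, 9.88 and 9.99 in A libraries. The change was -0.83 ± 0.10 (adjusted p = 8.18e-05), or 1.78-fold lower, and within groups it ran from -1.18 in shWDR5 glucagon to -0.35 in shKAT2B glucagon. Its neighbour on the chromosome, Cmpk2, a mitochondrial nucleotide kinase gene, had 9.33, 8.83, 8.78 and 8.57 in B, against 9.21, 9.23, 9.10 and 9.09 in A libraries. Its change was -0.28 ± 0.09 (adjusted p = 0.0215), and the letters overlapped, since B lay above A in shKAT2B glucagon. Without any 1 of the 6 libraries of the other 3 groups the call of Cmpk2 was lost (adjusted p of up to 0.127), as it was after quantile normalization (0.108) and with median-centred libraries (0.0801). Ifit3, one of the tetratricopeptide repeat proteins that bind viral RNA, had 8.74, 9.07, 8.63 and 9.08 in B, against 8.97, 10.41, 9.60 and 9.81 in A libraries. It changed by -0.82 ± 0.13 (adjusted p = 0.000408), or 1.76-fold, and shKAT2B glucagon A, at 8.97, lay within the range of the B libraries. Ifit2, of the same family, had 8.44, 8.93, 8.94 and 8.99 in B, against 9.04, 9.34, 9.03 and 9.37 in A libraries, and changed by -0.37 ± 0.08 (adjusted p = 0.00197) with no overlap. Isg20 stood at 9.02, 9.04, 9.04 and 8.92 in B, against 8.89, 9.35, 8.76 and 8.96 in A libraries. It differed by 0.01 ± 0.08 (adjusted p = 0.894) and was lower in B in 2 of the 4 groups.

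The oligoadenylate synthetases make a second messenger that activates the ribonuclease RNase L. Oasl2, a member of this family, stood at 9.67, 9.70, 9.26 and 9.37 in B, against 10.34, 10.55, 10.01 and 10.25 in A libraries. Every B library was below every A library, and the change was -0.79 ± 0.05 (adjusted p = 2.19e-06), or 1.73-fold lower. Oas1a had 8.13, 8.18, 8.05 and 8.41 in B, against 8.53, 8.67, 8.54 and 8.69 in A libraries, a change of -0.42 ± 0.06 (adjusted p = 0.000270) without overlap. Oasl1, which in mouse cells restrains translation of the Irf7 message, had 10.72, 11.42, 11.03 and 10.93 in B, against 10.80, 11.87, 11.35 and 11.23 in A libraries. It was lower in B within each group, at -0.29 ± 0.06 (adjusted p = 0.00143), and the letters overlapped. Of the genes below the filter, Oas3 stood between 6.78 and 7.05 in B and between 7.02 and 7.49 in A libraries, and Oas2 between 6.86 and 6.97 in B and between 6.65 and 7.22 in A libraries. Mx2, which encodes a dynamin-like antiviral GTPase, stood between 5.60 and 6.28 in B and between 6.41 and 7.50 in A libraries. These 3 genes were not tested, and among them Mx2 alone showed no overlap of the letters.

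Trim30a, a tripartite motif protein gene whose product restrains Toll-like receptor signalling in mouse cells, showed the largest change of the 30 genes. It stood at 9.61, 9.91, 9.83 and 9.91 in B, against 10.54, 10.84, 10.58 and 10.70 in A libraries. The change was -0.85 ± 0.05 (adjusted p = 1.12e-06), or 1.80-fold lower, and it lay between -0.93 and -0.75 in the 4 groups. Xaf1, which promotes apoptosis by opposing the inhibitor XIAP, had 8.06, 8.63, 8.33 and 8.33 in B, against 8.94, 9.58, 8.84 and 8.98 in A libraries. It changed by -0.75 ± 0.08 (adjusted p = 2.25e-05). Bst2 encodes tetherin, which holds budding virions at the cell surface, and stood at 10.87, 11.05, 11.19 and 11.03 in B, against 11.54, 11.91, 11.59 and 11.78 in A libraries. The change was -0.67 ± 0.06 (adjusted p = 1.37e-05), and neither gene's letters overlapped. Ifi35, an interferon-induced leucine zipper protein gene, had 9.62, 9.71, 9.77 and 9.69 in B, against 9.76, 10.17, 9.95 and 10.03 in A libraries. It changed by -0.28 ± 0.06 (adjusted p = 0.00291), with shKAT2B glucagon A just under the highest B library.

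**Figure D2:**
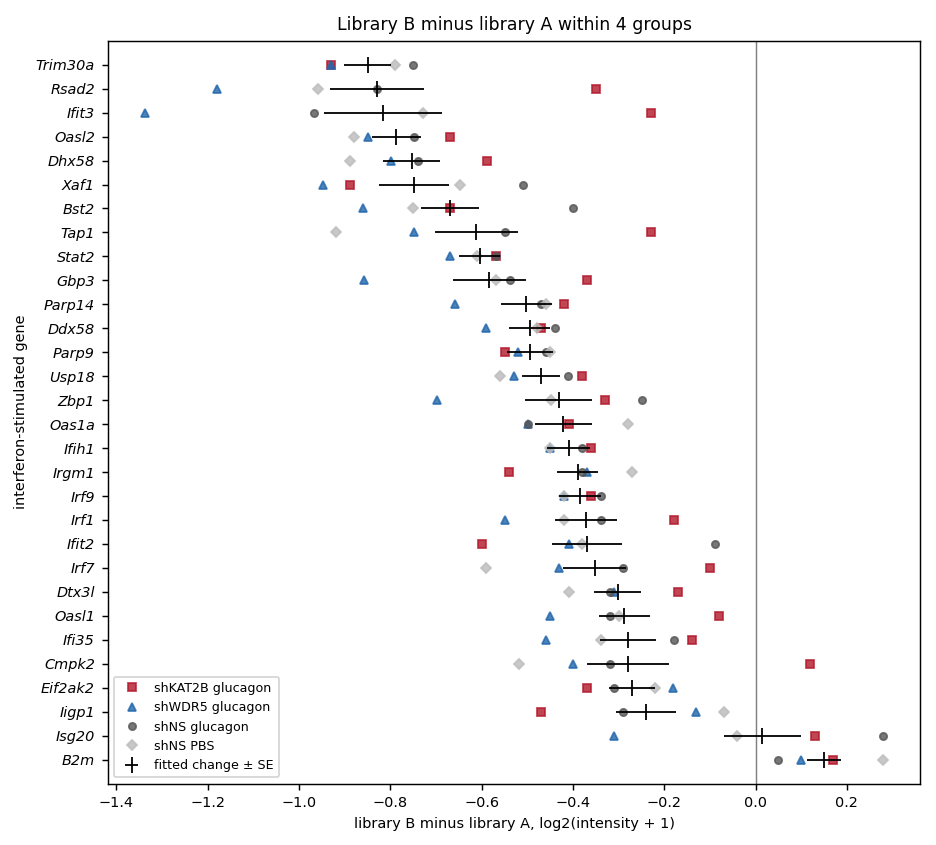
Points give library B minus library A, in log2(intensity + 1), within each of the 4 groups that hold both letters, for the 30 genes tested, and black bars the fitted change ± SE. Trim30a is at the top with -0.85, and only Isg20 (0.01) and B2m (0.15) have a fitted change above 0.

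In the ISG15 system and the PARP9 module, 4 of 4 tested genes were lower in B, with a median of -0.48. Usp18, the protease that removes ISG15 and dampens interferon receptor signalling, stood at 11.79, 11.65, 11.76 and 11.72 in B, against 12.17, 12.18, 12.17 and 12.28 in A libraries. The change was -0.47 ± 0.04 (adjusted p = 9.16e-06), and the 4 groups lay close together, between -0.56 and -0.38. Parp9 and Dtx3l lie side by side in the genome and encode the 2 subunits of a ubiquitin ligase. Both were lower in B within each of the 4 groups, but by different amounts. B minus A was -0.55 for Parp9 and -0.17 for Dtx3l in shKAT2B glucagon, and -0.45 and -0.41 in shNS PBS. Parp9 stood at 9.47, 9.58, 9.32 and 9.41 in B, against 10.02, 10.10, 9.78 and 9.86 in A libraries, a change of -0.49 ± 0.05 (adjusted p = 2.25e-05). Dtx3l stood at 10.45, 10.28, 10.14 and 10.07 in B, against 10.62, 10.59, 10.46 and 10.48 in A libraries, a change of -0.30 ± 0.05 (adjusted p = 0.000617). Parp14, an ADP-ribosyltransferase gene of the same genomic cluster, had 9.52, 9.22, 9.52 and 9.60 in B, against 9.94, 9.88, 9.99 and 10.06 in A libraries, and changed by -0.50 ± 0.06 (adjusted p = 4.13e-05). For all 4 genes every B library lay below every A library.

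The 3 GTPase genes tested were lower in B, with a median of -0.39. Gbp3, a guanylate-binding protein gene, stood at 7.76, 7.87, 7.77 and 7.75 in B, against 8.13, 8.72, 8.30 and 8.31 in A libraries. It changed by -0.58 ± 0.08 (adjusted p = 0.000138), without overlap. Irgm1, an immunity-related GTPase that regulates the other members of its family, had 11.57, 12.01, 11.89 and 12.22 in B, against 12.11, 12.38, 12.27 and 12.49 in A libraries. Its change was -0.39 ± 0.04 (adjusted p = 4.87e-05), and shNS PBS B, at 12.22, overlapped shKAT2B glucagon A. Iigp1, an effector GTPase of the same family, had 9.42, 10.29, 10.00 and 10.17 in B, against 9.89, 10.42, 10.29 and 10.24 in A libraries. It changed by -0.24 ± 0.07 (adjusted p = 0.00996), with overlapping letters, and the call was lost without shNS glucagon A or shNS glucagon B (adjusted p = 0.0538 for either), after quantile normalization (0.0741) and with median-centred libraries (0.0996).

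The 2 genes of antigen presentation went opposite ways. Tap1, a subunit of the transporter that loads peptides onto class I molecules, stood at 9.82, 9.36, 9.01 and 8.70 in B, against 10.05, 10.11, 9.56 and 9.62 in A libraries. It fell by 0.61 ± 0.09 (adjusted p = 0.000262) in B, although shKAT2B glucagon B, at 9.82, was higher than both shNS A libraries. B2m, the light chain of class I molecules, stood at 13.75, 13.67, 13.62 and 13.71 in B, against 13.58, 13.57, 13.57 and 13.43 in A libraries. It rose by 0.15 ± 0.04 in B (adjusted p = 0.00560), or 1.11-fold, with all 4 B libraries above all 4 A libraries, against 6.87 percent of all genes with that pattern.

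For these genes the lone PBS libraries, although lettered A, resembled B libraries. The leading residual component over all genes also placed them with the B libraries. Shares of all genes are not given for the counts that follow, so these are not read as particular to the 30 genes. In shKAT2B PBS A, 29 of the 30 genes were nearer to shKAT2B glucagon B than to shKAT2B glucagon A (median absolute difference of 0.08 against 0.31), and 24 of 30 were nearer to shNS PBS B than to shNS PBS A. In shWDR5 PBS A, 28 of 30 were nearer to shWDR5 glucagon B than to shWDR5 glucagon A (0.09 against 0.57), and 24 of 30 nearer to shNS PBS B. Trim30a, for example, stood at 9.83 in shKAT2B PBS A and at 9.86 in shWDR5 PBS A, inside the B range of 9.61 to 9.91. Stat2 stood at 10.31 and 10.27 in the same libraries, and B2m at 13.69 and 13.67, likewise inside their B ranges. With the library set in place of the letter and all 10 libraries in the fit, the count was 28 lower and 1 higher. The sets were read from the residuals of these same libraries, so that count is not separate evidence and its p-values are too small. The share of all genes called in that fit is not given here.

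The share of higher genes among all called genes depended on scaling, while the direction among interferon-stimulated genes did not. Of all genes called between the letters, 30.6 percent were higher in B as deposited, 44.0 percent after quantile normalization and 55.2 percent with median-centred libraries. Among the 30 genes the counts were 28 lower and 1 higher as deposited, and 26 lower and 1 higher under each of the other 2 scalings. Of all 11480 genes, 4079 were lower and 1797 higher as deposited. After quantile normalization 2955 were lower and 2323 higher, and with median-centred libraries 2451 were lower and 3025 higher. The 13 genes with a response element core in a promoter window included 12 that were tested, with a median change of -0.54 (from -0.85 to 0.15). The 12 tested genes with a window but no core had a median of -0.36 (from -0.79 to 0.01), so the ranges overlapped.

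**Figure D3:**
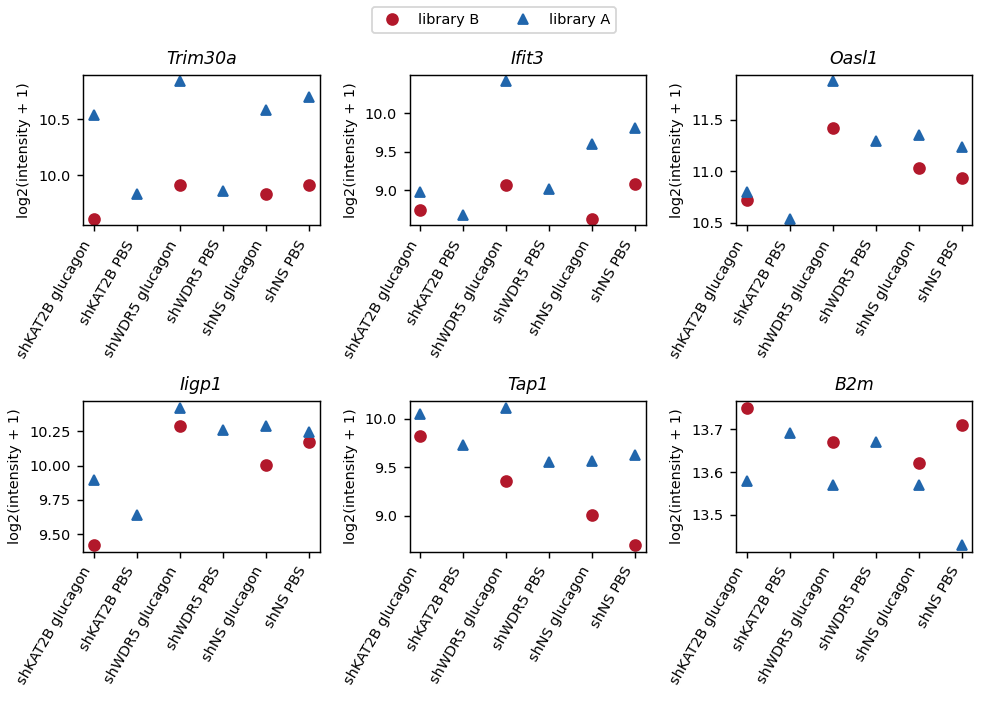
Each panel gives log2(intensity + 1) of 1 gene in the 10 libraries, by group along the horizontal axis, with circles for B and triangles for A libraries. Trim30a and Ifit3 are low in B and in the lone PBS libraries, Oasl1 and Iigp1 are lowest in the shKAT2B groups, Tap1 is lowest in shNS PBS B (8.70), and B2m is higher in B.

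Other genes of the interferon pathway were taken from lists of ligands, receptors, regulators, sensors and further induced genes. Of 10 listed interferon genes 2 were tested and neither was called (Ifna5 0.13 ± 0.07 and Ifnz -0.13 ± 0.08, adjusted p = 0.158 and 0.157). Shares of all genes, for comparison with the counts of these lists, were 35.5 percent lower and 15.7 percent higher in B. Of 9 receptor and JAK-STAT genes 4 were lower in B, among them the kinase gene Tyk2 at -0.30 ± 0.06 and the receptor gene Ifngr1 at -0.26 ± 0.03, and 1 was higher, the kinase gene Jak2 at 0.15 ± 0.06. Of 6 negative regulators 3 were higher in B and 1 lower, with Socs3, a suppressor of cytokine signalling, at 0.27 ± 0.10 and Cish, of the same family, at -0.21 ± 0.06. Of 14 genes of nucleic acid sensing and signalling 5 were lower and 2 higher, shares near those of all genes. The DNA-sensing family gene Ifi205 was lower at -0.64 ± 0.10, while Aim2, which senses DNA in the cytosol, was higher at 0.57 ± 0.07 and Irf8, a factor of macrophage development, at 0.35 ± 0.06. In a further list of interferon-induced genes 16 of 21 were lower in B and 3 higher, with a median of -0.35. The RNA helicase-like gene Ddx60 stood at -1.12 ± 0.11, Ifit1, a partner of Ifit3, at -1.04 ± 0.08, the guanylate-binding protein gene Gbp7 at -0.92 ± 0.08 and Rtp4 at -0.69 ± 0.05. The membrane restriction factor gene Ifitm2 rose by 0.24 ± 0.03. Of 10 further genes of antigen processing 4 were lower in B and 0 higher, namely H2-Q4, Psme2, Tap2 and Tapbp, from -0.44 to -0.20. Adjusted p of these called genes, from the same limma fit, lay below 0.05 throughout.

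Markers of the cell types that a hepatocyte preparation can hold also differed between the letters. Among all genes tested, 15.7 percent were called higher and 35.5 percent lower in B. Kupffer cell and leukocyte markers were higher in B for 15 of 15 genes tested, with a median of 0.51, and their summed intensity was 12674 to 17908 in B and 8738 to 11021 in A libraries. Endothelial markers were higher for 9 of 11 and lower for 0 (median 0.48, sum 5752 to 7641 in B and 4547 to 5131 in A). Stellate cell and fibroblast markers were lower for 7 of 8 and higher for 0 (median -0.47, sum 5605 to 6428 in B and 8345 to 8714 in A), and cholangiocyte markers lower for 3 of 3 (sum 2464 to 3995 in B and 3883 to 4893 in A). Of lymphocyte and plasmacytoid cell markers 5 were measured and Bst1 alone passed the filter, at -0.86 (sum 441 to 602 in B and 605 to 714 in A). In shNS PBS, Bst1 stood at 7.99 in B and 8.65 in A. The markers below the filter were not lower there, with Cd3e at 6.76 and 6.60, Cd8a at 6.63 and 6.53, Nkg7 at 5.75 and 5.75 and Siglech at 6.52 and 6.21. The sum follows Bst1 and is not read as a result about these cells. Hepatocyte markers were higher for 5 of 10 and lower for 1 (median 0.15, sum 50423 to 61778 in B and 48217 to 58182 in A). In the lone PBS libraries the Kupffer sum was 16735 for shKAT2B and 14861 for shWDR5, inside the B range, and the stellate sum 6321 and 6094, inside the B range as well. Their hepatocyte sum was 46513 for shKAT2B, below both the B and the A range, and 52786 for shWDR5, inside both. No marker was at 0 in these intensities. The part of cell composition in the lower interferon-stimulated genes of B libraries was not tested, and in bulk RNA fewer cells of a type and less RNA per cell cannot be told apart.

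Which interferon-stimulated genes differed between the hairpins was asked next. With hairpin and treatment in the model, 2 of the 30 genes (6.67 percent) were lower in shKAT2B than in shNS cells and 0 higher. Of all 11480 genes, 1028 were lower and 764 higher, or 15.6 percent called in either direction. The median was -0.10 over the 30 genes and 0.01 over all genes (3 shKAT2B against 4 shNS libraries). The 2 lower genes were Oasl1 and Iigp1. Oasl1 stood at 10.72 and 10.80 in shKAT2B glucagon B and A and at 10.54 in shKAT2B PBS A, against 11.03 and 11.35 in shNS glucagon B and A and 10.93 and 11.23 in shNS PBS B and A. All 3 shKAT2B libraries were below all 4 shNS libraries, a change of -0.48 ± 0.13 (adjusted p = 0.0337). Iigp1 stood at 9.42 and 9.89 in shKAT2B glucagon B and A and at 9.64 in shKAT2B PBS A, against 10.00 and 10.29 in shNS glucagon B and A and 10.17 and 10.24 in shNS PBS B and A. It also showed no overlap, with a change of -0.53 ± 0.12 (adjusted p = 0.0166). Oasl1 lost its call without any 1 of 7 libraries (shKAT2B PBS A, both shKAT2B glucagon libraries, shWDR5 PBS A, both shNS PBS libraries and shNS glucagon A, adjusted p of up to 0.162), and Iigp1 without shKAT2B PBS A, shKAT2B glucagon B or shNS glucagon A (up to 0.102), so the number called was 0 to 3. Both kept their direction each time.

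Because same-letter libraries deviated together, the same contrast was fitted with the letter as a replicate block. Then 7 of 30 were called (29.6 percent of all genes), with Tap1 higher and Zbp1, Ifit2, Oasl1, Bst2, Irgm1 and Iigp1 lower. Every fit with the letter as a block on all 10 libraries counts the lone PBS libraries as A. For these genes they lay with the B libraries, so such a fit does not pair them properly. The median of shKAT2B over shNS was -0.19 with the letter and -0.001 with the library set as a block. On the 8 libraries without the lone PBS libraries, within glucagon and with the letter as a block, 6 of 30 were called (27.2 percent of all genes), with Oasl2, Dtx3l and Tap1 higher and Oasl1, Irgm1 and Iigp1 lower. With the library set as a block and all 10 libraries, 7 of 30 were lower (20.1 percent of all genes) and 7 higher (21.5 percent of all genes), shares near those of all genes. The lower genes were Dhx58, Zbp1, Ifit2, Oasl1, Bst2, Irgm1 and Iigp1, and the higher ones Ddx58, Irf1, Oasl2, Cmpk2, Parp9, Dtx3l and Tap1. The sets were read from the residuals of the same libraries, so p-values of fits that contain them are too small. Oasl1 and Iigp1 were lower and called in all 4 fits, at -0.42 ± 0.06 and -0.47 ± 0.07 with the set as a block (adjusted p = 9.95e-05 and 9.56e-05).

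Tap1 was the gene with the largest positive value in shKAT2B. It stood at 9.82 and 10.05 in shKAT2B glucagon B and A and at 9.73 in shKAT2B PBS A, against 9.01 and 9.56 in shNS glucagon B and A and 8.70 and 9.62 in shNS PBS B and A. All 3 shKAT2B libraries were above all 4 shNS libraries. The difference was 0.62 ± 0.25 without a block, which did not pass (adjusted p = 0.135), 0.50 ± 0.12 with the letter as a block (adjusted p = 0.0136) and 0.74 ± 0.10 with the set as a block (adjusted p = 7.45e-05). Irgm1 differed by -0.36 ± 0.16 without a block (adjusted p = 0.171), by -0.43 ± 0.10 with the letter as a block (adjusted p = 0.00840) and by -0.28 ± 0.05 with the set as a block (adjusted p = 0.000411). Within matched letters, the median of shKAT2B minus shNS over the 30 genes was -0.02 between the glucagon A libraries (16 negative, 13 positive) and 0.00 between the glucagon B libraries (14 negative, 14 positive). For shKAT2B PBS A it was 0.05 against shNS PBS B and -0.44 against shNS PBS A (14 and 26 negative).

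In shWDR5 cells 0 of the 30 genes were called against shNS by limma, with 1 at an unadjusted p under 0.05, while 10.9 percent of all genes were called (3 shWDR5 against 4 shNS libraries). The median was 0.03 over the 30 genes and -0.01 over all genes. Oasl1 stood at 11.42 and 11.87 in shWDR5 glucagon B and A and at 11.29 in shWDR5 PBS A, against the shNS values given above, and it overlapped shNS only through shNS glucagon A (11.35). Its difference of 0.36 ± 0.13 did not pass (adjusted p = 0.118). With the letter as a replicate block, 2 of 30 were called (26.7 percent of all genes), Oasl1 higher at 0.30 ± 0.09 (adjusted p = 0.0292) and Parp14 lower at -0.45 ± 0.12 (adjusted p = 0.0183). That fit again counts the lone PBS libraries as A, and its median over the 30 genes was -0.03, against 0.11 with the set as a block. Without the lone PBS libraries and within glucagon, 8 of 30 were called, all higher (23.7 percent of all genes called in either direction): Stat2, Ifit3, Oasl1, Oasl2, Rsad2, Xaf1, Parp9 and Tap1. With the set as a block, 9 of 30 were higher (18.8 percent of all genes) and 1 lower (18 percent of all genes). The higher genes were Irf9, Stat2, Oasl1, Oasl2, Xaf1, Parp9, Gbp3, Iigp1 and Tap1, and the lower one Parp14.

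Xaf1 passed with the set as a block and not without a block. It stood at 8.63 and 9.58 in shWDR5 glucagon B and A and at 8.72 in shWDR5 PBS A, against 8.33 and 8.84 in shNS glucagon B and A and 8.33 and 8.98 in shNS PBS B and A. Within each letter the shWDR5 libraries were higher under glucagon, while over both letters the groups overlapped. The difference was 0.34 ± 0.29 without a block (adjusted p = 0.519) and 0.50 ± 0.09 with the set as a block (adjusted p = 0.000928). Oasl2 differed by 0.24 ± 0.31 without a block (adjusted p = 0.684) and by 0.41 ± 0.06 with the set as a block (adjusted p = 0.000340). Tap1 differed by 0.42 ± 0.25 without a block (adjusted p = 0.328) and by 0.55 ± 0.10 with the set as a block (adjusted p = 0.000994). Within matched glucagon libraries the median of shWDR5 minus shNS over the 30 genes was 0.18 for A (28 positive, all genes 0.02) and 0.08 for B (20 positive, all genes -0.02). For shWDR5 PBS A it was 0.07 against shNS PBS B (18 positive) and -0.37 against shNS PBS A (3 positive).

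**Figure D4:**
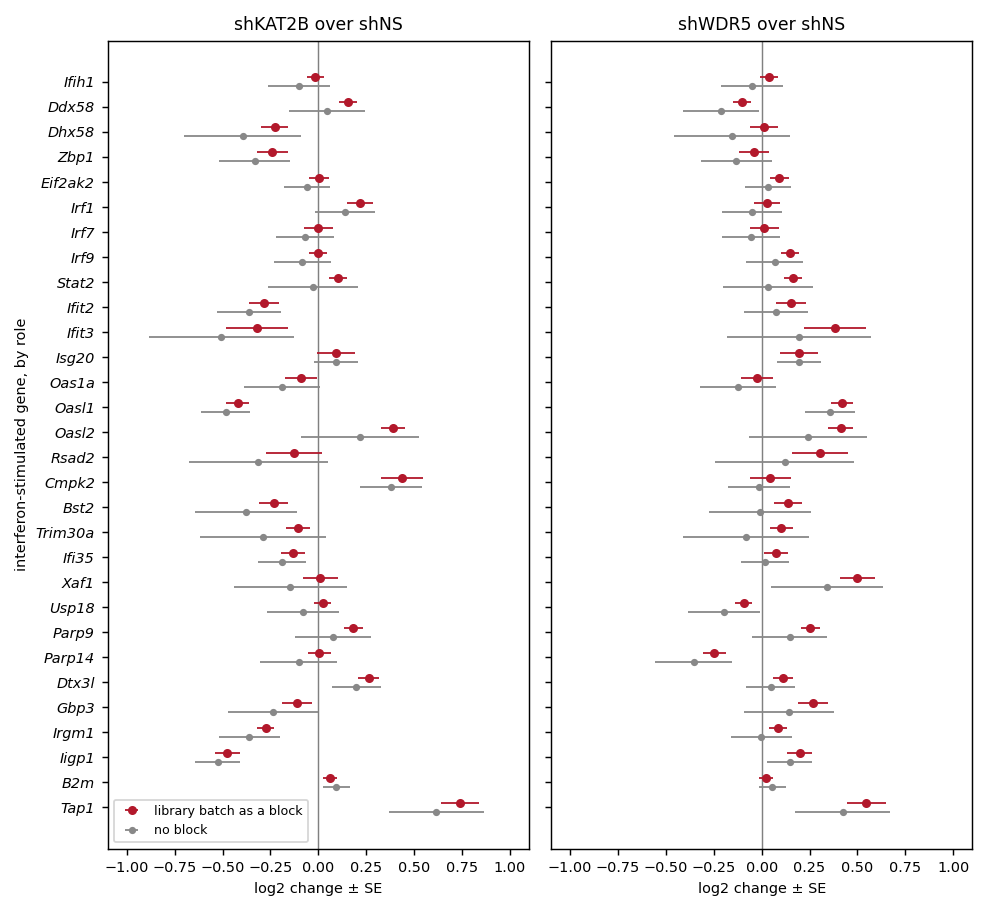
Points give the fitted log2 change ± SE of shKAT2B over shNS (left) and shWDR5 over shNS (right) for the 30 genes tested, by role, in grey without a block and in red with the library set as a block. Oasl1 and Iigp1 lie left of 0 in shKAT2B in both fits, and Tap1 lies right of 0 in both panels (0.62 and 0.42 without a block).

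Both hairpin contrasts share the 4 shNS libraries, so the arms were also compared directly, 3 shKAT2B against 3 shWDR5 libraries. Again Oasl1 and Iigp1 were lower in shKAT2B, 2 of 30 genes, against 1318 of all 11480 genes lower and 22.7 percent called in either direction. Oasl1 differed by -0.84 ± 0.14, or 1.79-fold (adjusted p = 0.00278), and Iigp1 by -0.67 ± 0.12, or 1.59-fold (adjusted p = 0.00513). The Iigp1 values in shWDR5 were 10.29 and 10.42 in glucagon B and A and 10.26 in PBS A, so for both genes the shKAT2B libraries lay below the shWDR5 libraries without overlap. Both calls held with any 1 library left out (adjusted p of up to 0.0178 for Oasl1 and 0.0279 for Iigp1). With the letter as a block 6 of 30 were called (36.1 percent of all genes), Cmpk2 higher and Ifit2, Oasl1, Xaf1, Irgm1 and Iigp1 lower. Without the lone PBS libraries 14 of 30 were called (39.3 percent of all genes), 13 lower and 1, Ddx58, higher. With the set as a block 13 were lower (24.6 percent of all genes) and 5 higher (25.9 percent of all genes), with Ifit3 at -0.70 ± 0.17 (adjusted p = 0.00384) and Cmpk2 at 0.39 ± 0.11 (adjusted p = 0.0108).

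Upstream of these genes, the receptor chain gene Ifngr2 was higher in shKAT2B than in shNS at 0.33 ± 0.05 (adjusted p = 0.00309) and Il10rb, a chain shared by receptors for interferon lambda and interleukins, at 0.34 ± 0.08 (adjusted p = 0.0165). The kinase gene Jak1 was lower at -0.29 ± 0.05 (adjusted p = 0.00709) and the transcription factor gene Stat3 at -0.35 ± 0.10 (adjusted p = 0.0433), so 2 of 9 receptor and JAK-STAT genes were higher and 2 lower without a block, against 15.6 percent of all genes called in either direction. With the letter as a block 3 were higher and 3 lower (29.6 percent of all genes called), and with the set as a block 4 were higher and 3 lower (21.5 and 20.1 percent of all genes). In shWDR5 Stat3 was lower at -0.54 ± 0.10 (adjusted p = 0.0124), the 1 call among the 9 without a block and with the letter as a block (10.9 and 26.7 percent of all genes called), and with the set as a block 1 was higher and 1 lower (18.8 and 18 percent of all genes). Of the 21 further interferon-induced genes, Ly6e was higher in shKAT2B at 0.19 ± 0.04 and Lgals3bp, a secreted glycoprotein gene, lower at -0.52 ± 0.12 (adjusted p = 0.0112 and 0.0206), and without a block Ly6e was the 1 gene called in shWDR5, at 0.20 ± 0.04 (adjusted p = 0.0143). In shKAT2B the same 21 genes gave 3 higher and 5 lower with the letter as a block, and 4 higher and 6 lower with the set as a block. In shWDR5 they gave 1 higher with the letter and 7 higher with the set as a block, and 0 lower in either fit.

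Some markers of other cell types were called between the hairpins, and most lists gave more calls in the fits with a block. The share of all genes called rose as well, from 15.6 to 29.6 percent in shKAT2B and from 10.9 to 26.7 percent in shWDR5 with the letter. Fits with the letter as a block count the lone PBS libraries as A. Kupffer cell and leukocyte markers in shKAT2B over shNS had a median of 0.43 with 0 of 15 called without a block, 0.53 with 9 higher with the letter as a block and 0.32 with 10 higher with the set as a block. In shWDR5 over shNS their median was 0.27 with 0 of 15 called without a block, 0.36 with 9 higher with the letter and 0.17 with 6 higher with the set. Endothelial markers gave 1 of 11 higher in shKAT2B without a block and 6 with either block, and in shWDR5 0 without a block, 3 with the letter and 2 with the set. Stellate cell and fibroblast markers gave 0 of 8 called in either arm without a block and 1 lower in each with the letter as a block, but 5 higher in shKAT2B and 3 higher in shWDR5 with the set as a block. Hepatocyte markers in shKAT2B had a median of -0.40 with 4 of 10 lower without a block, -0.41 with 7 lower with the letter and -0.41 with 9 lower with the set. In shWDR5 their median was -0.11 with 2 of 10 lower without a block, -0.14 with 4 lower with the letter, and -0.17 with 5 lower and 1 higher with the set. Cholangiocyte markers gave 1 of 3 lower in shKAT2B without a block, 2 with the letter and 1 with the set. In shWDR5 2 of 3 were lower in each fit. Bst1, the only lymphocyte and plasmacytoid cell marker tested, was lower in shKAT2B in each fit, at -1.30 without a block. It was not called in shWDR5 in any of them. Shares of all genes called in these fits are those given above for each arm. The part of these markers in the hairpin differences was not tested.

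The next question was whether glucagon moved these genes. With hairpin and treatment in the model 0 of 30 were called by limma and 0 had an unadjusted p under 0.05, while 0.923 percent of all genes were called (6 glucagon against 4 PBS libraries). The median was 0.09 over the 30 genes, with values from -0.12 to 0.31, and 0.02 over all genes. This median depended on the fit, at 0.21 with the letter as a replicate block (0 of 30 called), -0.02 with the library set as a block and -0.05 within the letter block without the lone PBS libraries (0 of 30 called). Shares of all genes called in the fits with the letter block are not given here. Their counts of 0 are therefore not read as a result about the 30 genes. Within shNS the median of glucagon minus PBS was -0.01 between B libraries and -0.09 between A libraries. With the library set as a block 1 of 30 was called (3.35 percent of all genes), Irgm1, lower at -0.23 ± 0.04 (adjusted p = 0.00425). It stood at 11.57, 12.01 and 11.89 in the B libraries of shKAT2B, shWDR5 and shNS glucagon and at 12.11, 12.38 and 12.27 in their A libraries, against 12.22 in shNS PBS B, 12.49 in shNS PBS A, 11.83 in shKAT2B PBS A and 12.20 in shWDR5 PBS A, and the treatments overlapped.

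Whether the glucagon effect differed between the arms rests on the lone PBS library of each hairpin arm. The difference of glucagon effects between shKAT2B and shNS called 0 of the 30 genes (0 percent of all genes by limma, with 0 of the 30 and 36 of all genes at an unadjusted p under 0.05), with a median of 0.18. Between shWDR5 and shNS it also called 0 of 30 (0 percent of all genes, with 0 of the 30 and 20 of all genes at an unadjusted p under 0.05), with a median of 0.27. With the letter as a replicate block, 11 of 30 were higher for shKAT2B (12 percent of all genes called in either direction), with a median of 0.42, and 14 of 30 for shWDR5 (4.75 percent of all genes), with a median of 0.50. In that fit the lone PBS libraries count as A libraries, although they lay with the B libraries for these genes. With the library set as a block the counts were 0 for both, with medians of -0.06 and 0.10. The share of all genes called in that fit is not given here, so these counts of 0 are not read as a result about the 30 genes.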

How the data were processed

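RNA of 10 libraries was measured on Affymetrix arrays. The authors deposited intensity on a linear scale for 26913 features, from 4.47 to 22694, with library medians of 282.1 to 298.2. The submitters' processing notes name Affymetrix Expression Console 1.1.1, with a normalization not given in the sources used here. Of the features, 17873 carried 1 gene symbol, 1128 several and 7912 none in the array annotation, and 17815 matched the RefSeq gene table, with 0 symbols updated.

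Values were taken as log2(intensity + 1), with 1 probe set per gene (highest mean), and the lowest 30 percent of genes were left out. Fits used limma 3.58.1 in R 4.3.3 (lmFit, eBayes with trend), tested on simulated data. Hairpin and treatment effects came from an additive model (6 residual degrees of freedom), interactions from a model of the 6 groups (4), and B over A from group plus letter on 8 libraries (3). Groups with 1 library were assumed to vary like the others. P-values are two-sided and Benjamini-Hochberg adjusted over all genes tested. For arrays, precision is limited by how many libraries there are. Python 3.11.15 (matplotlib 3.10.9, numpy 2.4.6, pandas 2.3.3) made tables and figures.

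Letters were taken to pair libraries because same-letter deviations from the group means correlated at 0.72 or more in all 6 pairs of groups (threshold 0.1). Alternatives were median-centred libraries, quantile normalization, other filters (none, or 50 percent), the mean of a gene's probe sets, no trend, pseudocounts of 0 and 16, the letter or the library set as a block, only the libraries of the 2 arms and each library left out. The members and gene lists were chosen with earlier results of these data known. Any member could be named, with every library's value for called ones, and up to 4 called genes of each other list per comparison, largest change first.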

Additional observations from a re-analysis of the deposited data

Results flagged for a closer look

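The difference of library B minus library A in Isg20, the exonuclease gene, had opposite signs in different groups, at -0.31 in shWDR5 glucagon and 0.28 in shNS glucagon (log2, 1 library against 1 in each). Cmpk2, the mitochondrial nucleotide kinase gene, stood at -0.52 in shNS PBS and at 0.12 in shKAT2B glucagon. The difference between groups was not tested in either gene.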

How the results depend on the processing

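No gene called without a block changed direction under any setting run. Genes called with a block did: in shKAT2B over shNS, Ddx58 and Parp9 (0.16 and 0.18 with the set, -0.04 and -0.01 with the replicate block), in shWDR5 over shNS, Irf9 and Stat2 (0.15 and 0.16 with the set, -0.01 and -0.08 with the replicate block) and Rsad2 (0.51 without the lone PBS libraries, -0.03 with the replicate block), and for the glucagon effect in shKAT2B minus in shNS, 4 genes (Stat2, Oasl2, Trim30a and Usp18, 0.44 to 0.77 with the replicate block, -0.08 to -0.03 with the set). The 29 calls between the letters numbered 27 to 29 with a library left out (leaving out either library of a group gives the same value), 25 with all 10 libraries and letter, hairpin and treatment in the model, where Cmpk2, Iigp1, Ifit3 (adjusted p = 0.0576) and Oas1a (0.0905) missed, 31 of 33 without a filter on low values, and 27 to 29 under the other settings. All-gene counts between the letters are given above for the deposited values and the other scalings only. Counts under the remaining settings, and hairpin counts with a library left out, are therefore not read as results about these genes. For shKAT2B over shNS the 2 calls became 7 with the replicate block, 14 with the library set as a block, 6 without the lone PBS libraries (with the block) and 0 to 3 with a library left out. For shWDR5 over shNS the 0 calls became 1 with median-centred libraries, 2 with the replicate block, 10 with the set and 8 without the lone libraries. For shKAT2B over shWDR5 the 2 calls became 6 with the replicate block, 18 with the set, 14 without the lone libraries and 2 to 4 with a library left out (4 without shKAT2B glucagon A). Glucagon gave 0 calls, 0 with the replicate block and 1 with the set. The interactions gave 0 calls, and 11 for shKAT2B and 14 for shWDR5 with the replicate block. These shifts were not traced further and the cause was not tested. The settings without the lone PBS libraries were chosen after seeing the data. Intensities near the filter and the single PBS library of each hairpin arm limit what can be seen.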
